A study of Homo sapiens with 6 samples.

Results

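The 46 genes described here are linked to the cell division cycle, and some of them, such as RB1 and RBL1, restrain it. They are described as 14 regulators of G1 and of entry into S phase, 11 genes of DNA replication in S phase and 21 genes of G2 and mitosis. The list of names was drawn up from known roles in the cycle, with earlier results of these arrays known, and all 46 were measured among the 18417 genes of the array that carry a single symbol on at least 1 probe set. BIRC5 had a second probe set, and each other member had only the one used. The arrays hold total RNA of IMR90 primary lung fibroblast cells, a human diploid line used widely to study growth and its arrest. The 3 control arrays come from untreated cells, and the 3 oncostatin M arrays come from cells given a single dose of 10 ng/mL of recombinant human oncostatin M. The sources used here state no treatment time, serum, confluence or passage. Nothing in the labels says whether the replicates of a group were grown apart, so the spread behind each p-value may be only technical.

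A fibroblast that divides passes through G1, where cyclins of the D type activate the kinases CDK4 and CDK6. These kinases, and later cyclin E with CDK2, phosphorylate the retinoblastoma protein RB1 and its relative RBL1, which releases E2F factors to transcribe the genes of DNA replication. Genes of G2 and mitosis are transcribed later in the cycle by complexes that contain the MuvB core, MYBL2 and FOXM1, and many of their promoters hold a short element called CHR beside CCAAT boxes. Oncostatin M belongs to the cytokines related to interleukin-6 and has been described both as an inhibitor and as a stimulator of growth, depending on the cell type.

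After oncostatin M, 4 of the 14 G1 regulators fell: the D-type cyclins CCND1 and CCND2, their partner kinase CDK6 and the Myb family factor MYBL1. None of the 11 S phase genes and none of the 21 genes of G2 and mitosis passed the same test in either direction. The test was a limma model over all 18417 genes with a threshold of 0.05 on the adjusted p, at which 3.42% of all genes were called, 1.70% lower and 1.72% higher. Of the 46 members, 4 were lower and 0 were higher, and at an unadjusted p under 0.05 the counts were 4 and 2. Those 6 are 13.0% of the members, near the 11.6% of all genes that had an unadjusted p under 0.05. The arrays measure RNA of the whole culture, so fewer cells in a phase and less RNA per cell cannot be told apart.

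**Figure D1:**
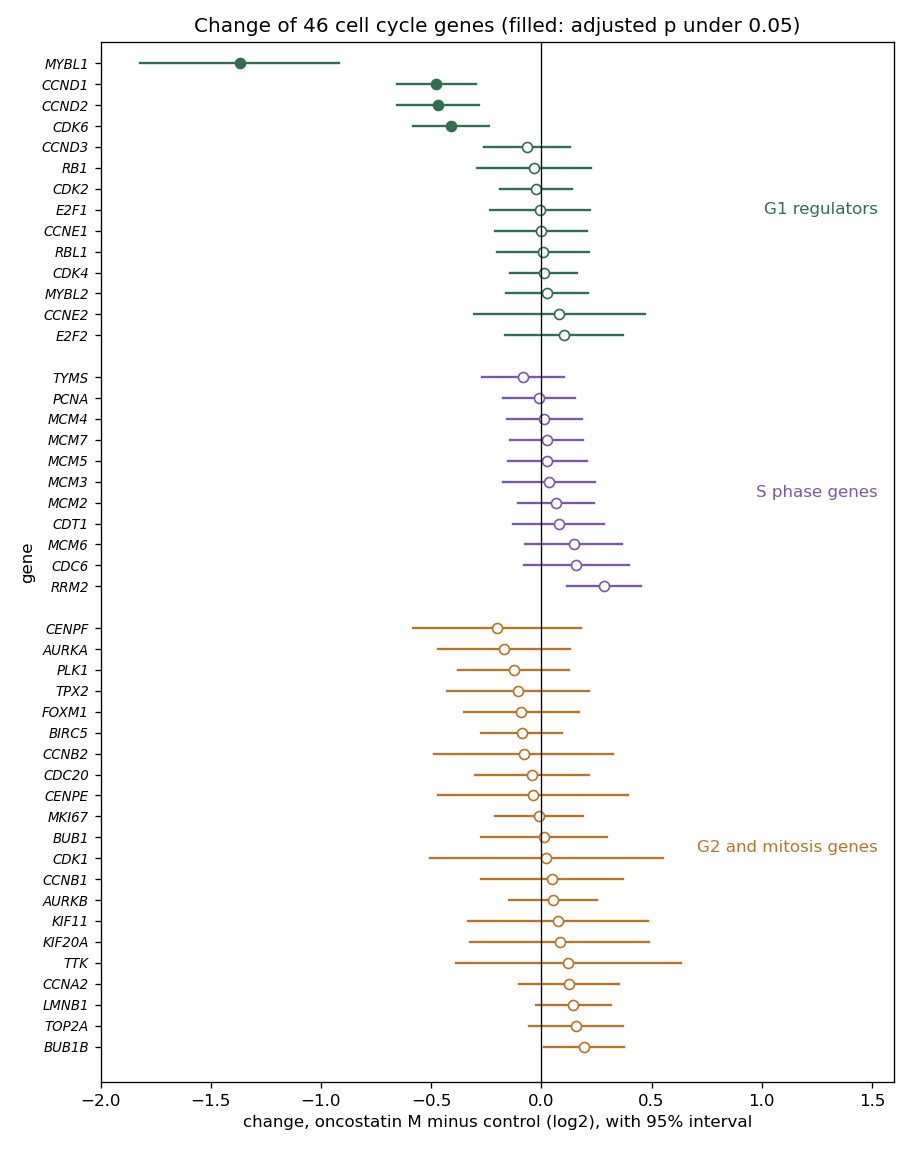
Change of each of the 46 genes after oncostatin M (horizontal axis, log2 difference of oncostatin M from control, 3 arrays per group), with its 95% interval from limma as a line and the genes listed on the vertical axis by phase. Filled points mark an adjusted p under 0.05, and all 4 of these are G1 regulators, MYBL1 at -1.37 and CCND1, CCND2 and CDK6 between -0.48 and -0.41.

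Values below are log2 expression levels from the deposited table, as mean ± SD over 3 arrays where they are averaged. Array medians over all probe sets lay between 6.54 and 6.66. The array of oncostatin M replicate 1 stood farthest from its group, with a root mean square deviation of 0.169 from the group mean over all genes, against 0.0843 to 0.116 for the other 5 arrays. All 10 fibroblast markers examined lay above the 95th percentile of genes that are normally silent in fibroblasts (6.74 in control and 6.77 after oncostatin M), as did 1 of 7 epithelial, 2 of 8 endothelial, 0 of 7 leukocyte and 5 of 7 smooth muscle markers. Of the fibroblast markers 2 were higher and 1 lower after oncostatin M, of the smooth muscle markers 1 was higher and 1 lower, and of the epithelial, endothelial and leukocyte markers none was called. Of the 46 members, 45 lay above that level in both groups. The exception was E2F2, at 6.09 ± 0.23 in control and 6.19 ± 0.07 after oncostatin M, so little can be said of its size. The number of arrays limits the precision throughout.

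CCND1, which encodes cyclin D1, read 12.35, 12.43 and 12.38 in the 3 controls and 11.84, 11.85 and 12.03 after oncostatin M. The groups did not overlap, and every treated array lay below every control. The level fell 1.39-fold (change -0.48, SE 0.08, limma adjusted p = 0.0138). CCND2, which encodes cyclin D2, read 9.17, 9.24 and 9.05 in the controls and 8.77, 8.63 and 8.65 after oncostatin M. It too separated fully, with a 1.39-fold fall (change -0.47, SE 0.08, limma adjusted p = 0.0178). CCND3, the third cyclin of the D type, overlapped between the groups, at 10.17, 10.37 and 10.23 against 10.12, 10.15 and 10.31. Its change of -0.07 (95% interval -0.26 to 0.13, adjusted p = 0.93) did not pass. The upper end of the interval for CCND1 (-0.30) lies just below the lower end for CCND3, and the difference between the cyclins was not tested.

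Of the partner kinases of the D-type cyclins, CDK6 was called and CDK4 was not. CDK6 read 10.84, 10.93 and 10.90 in the controls and 10.45, 10.58 and 10.42 after oncostatin M. No treated array reached the lowest control, and the level fell 1.33-fold (change -0.41, SE 0.08, limma adjusted p = 0.0243). CDK4 read 11.51, 11.58 and 11.56 in the controls and 11.54, 11.57 and 11.57 after oncostatin M, so its groups overlapped. Its change was 0.011 (95% interval -0.14 to 0.16, adjusted p = 0.989), an interval that leaves out a shift of the size seen in CDK6. The difference between the kinases was not tested.

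**Figure D2:**
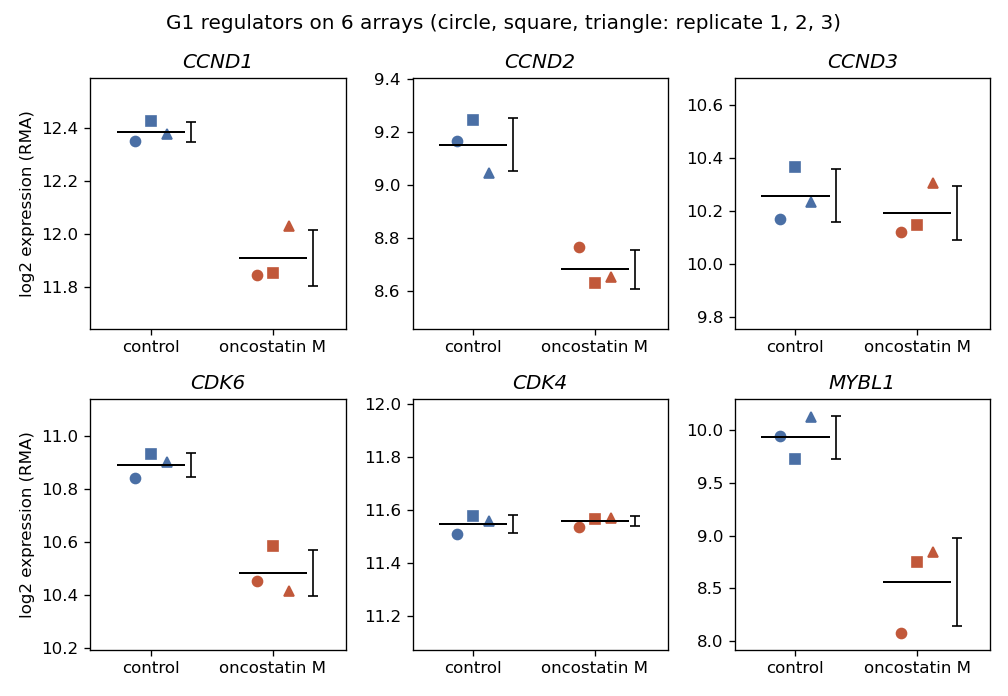
Log2 expression (RMA) of 6 G1 regulators on each array, with circles, squares and triangles for replicates 1, 2 and 3, a horizontal line for the group mean and a bar for 1 SD (n = 3 per group); vertical axes differ between panels. CCND1, CCND2, CDK6 and MYBL1 separate fully between control and oncostatin M, while CCND3 and CDK4 overlap.

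The largest change among the members was that of MYBL1, which encodes A-Myb, a transcription factor related to the cell cycle regulator MYBL2. It read 9.94, 9.72 and 10.12 in the controls and 8.08, 8.75 and 8.84 after oncostatin M, and oncostatin M replicate 1 was the lowest. The level fell 2.58-fold (change -1.37, SE 0.20, limma adjusted p = 0.00768), and without oncostatin M replicate 1 the change was -1.13. MYBL2, which acts with the MuvB core at promoters of mitotic genes, was not called. Its levels were 8.71, 8.80 and 8.59 in the controls and 8.72, 8.78 and 8.67 after oncostatin M, with a change of 0.025 (95% interval -0.16 to 0.21, adjusted p = 0.976).

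The 4 G1 calls rest on 3 arrays per group and most were lost when 1 array was left out. Without control 1 none of the 4 passed, with adjusted p between 0.0637 for MYBL1 and 0.103 for CCND2, although all 4 stayed under an unadjusted p of 0.05. MYBL1 alone passed without control 2, MYBL1 and CCND2 without control 3, MYBL1 and CDK6 without oncostatin M 2, and MYBL1 and CCND1 without oncostatin M 3, so the count of members lower ran from 0 to 4. Without oncostatin M 1, the array farthest from its group, all 4 passed. Their changes stayed between -0.37 (CDK6) and -1.51 (MYBL1) in these fits. The number of calls over all 18417 genes moved as well, with 314 lower when all arrays were used. It was 105, 127 and 136 lower without control 1, 2 and 3. Without oncostatin M 1, 2 and 3 it was 332, 179 and 234.

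The other 10 G1 regulators, CCND3, CDK4 and MYBL2 among them, had changes between -0.07 and 0.10. CCNE1 and CCNE2, the E-type cyclins that act at the end of G1, differed by -0.0032 and 0.08, and their partner CDK2 by -0.023. CCNE2 spread widely within the control group (8.69, 8.43 and 8.08), so its 95% interval ran from -0.31 to 0.47. RB1 and RBL1, the pocket proteins that hold E2F factors in check, differed by -0.033 and 0.0061, and E2F1, an activator of replication genes, by -0.0067. The 3 treated arrays of RB1 read 9.71, 10.11 and 9.98, with oncostatin M 1 the lowest. None of these groups was separated.

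No gene of DNA replication passed the threshold, and 1 of the 11 had an unadjusted p under 0.05 (limma). The 6 subunits of the MCM helicase, which opens DNA at replication origins, had changes between 0.014 (MCM4) and 0.15 (MCM6). MCM6 read 8.66, 8.52 and 8.53 in the controls and 8.54, 8.86 and 8.74 after oncostatin M, so the groups overlapped. The loading factors CDC6 and CDT1, which place the helicase on DNA, differed by 0.16 and 0.08, and PCNA, the sliding clamp of the replicating polymerases, by -0.011. The 95% interval of PCNA ran from -0.17 to 0.15. TYMS, which makes thymidylate, differed by -0.08. Of the 11 genes, 9 lay above 0, with a median change of 0.036, beside 0.0006 over all genes.

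RRM2, the regulated subunit of ribonucleotide reductase, which supplies deoxynucleotides, had the highest change of all 46 members. It read 9.04, 8.95 and 8.94 in the controls and 9.22, 9.35 and 9.22 after oncostatin M. All treated arrays were above all controls. The level was 1.22-fold higher (change 0.29, SE 0.07), with an adjusted p of 0.0946 (limma), which does not pass. It passed with array weights (adjusted p = 0.0406) and when genes not above the silent genes were left out (0.0468), but not when genes with a mean level under 6 were left out (0.0644) and in none of the 6 fits with 1 array left out. Among all members, 3 did not overlap with the treated arrays higher (RRM2, BUB1B and LMNB1), against 7.43% of all genes, and 4 did not overlap with the treated arrays lower, against 10.6%.

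The 21 genes of G2 and mitosis had changes between -0.20 (CENPF) and 0.19 (BUB1B), with 11 above 0 and 10 below and a median of 0.011. None passed the threshold, and BUB1B had an unadjusted p under 0.05 (limma). MKI67, the marker of dividing cells used in histology, read 9.09, 9.12 and 9.23 in the controls and 9.00, 9.15 and 9.25 after oncostatin M. The treated arrays enclosed the controls (change -0.013, 95% interval -0.21 to 0.19, adjusted p = 0.99). TOP2A, the topoisomerase that untangles sister chromosomes, differed by 0.16 (95% interval -0.06 to 0.37), and CCNA2, the cyclin of S phase and G2, by 0.13. All 21 intervals lay within a change of 1 in either direction, which is a 2-fold change, and 18 lay within 0.5.

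CDK1, the kinase that starts mitosis, read 7.52, 7.26 and 7.49 in the controls and 6.84, 7.82 and 7.68 after oncostatin M. The treated arrays thus held both the lowest and the highest values, and the change of 0.022 had a 95% interval of -0.51 to 0.55. Its cyclins CCNB1 and CCNB2 differed by 0.05 and -0.08. CCNB2 read 9.24, 9.04 and 9.51 in the controls and 8.80, 9.34 and 9.41 after oncostatin M. FOXM1, a transcription factor for genes of this phase, differed by -0.09 and PLK1, a mitotic kinase, by -0.13.

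Among genes of the spindle, AURKA and TPX2, a kinase and its activator at the spindle poles, differed by -0.17 and -0.11, and the motor proteins KIF11 and KIF20A by 0.08 each. KIF11, which pushes the spindle poles apart, read 8.76, 8.57 and 8.87 in the controls and 8.37, 9.09 and 8.97 after oncostatin M. As with CDK1, oncostatin M 1 was the lowest of the 6 arrays and the other treated arrays were the highest. The kinetochore proteins CENPE and CENPF differed by -0.039 and -0.20, and AURKB and BIRC5 of the chromosomal passenger complex by 0.05 and -0.09. The second probe set of BIRC5 read lower than the one used on every array (5.15 to 5.54).

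Genes of the spindle checkpoint, which holds cells in metaphase until chromosomes are attached, were BUB1, BUB1B, TTK and the activator of anaphase that they restrain, CDC20. BUB1B read 8.70, 8.72 and 8.79 in the controls and 8.81, 9.00 and 8.99 after oncostatin M, so the groups were separate by a narrow margin (change 0.19, SE 0.08, limma adjusted p = 0.385). It passed with array weights alone among the alternatives tried (adjusted p = 0.0291). BUB1 and CDC20 differed by 0.011 and -0.043. TTK had the widest upper bound of the list, with a change of 0.12 and a 95% interval of -0.39 to 0.64. LMNB1, a nuclear lamina protein whose loss accompanies senescence of fibroblasts, read 8.08, 8.11 and 8.10 in the controls and 8.13, 8.28 and 8.31 after oncostatin M. It did not pass (change 0.15, limma adjusted p = 0.559).

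Genes of G2 and mitosis varied together between arrays of the same group. Oncostatin M 1 was the lowest array of its group for 19 of the 21 genes, which is 90.5%, against 41.6% of all genes, and the lowest of all 6 arrays for 15, or 71.4% against 28.7%. Set against the control mean of each gene, the median of the list was -0.25 on oncostatin M 1 and 0.09 and 0.17 on oncostatin M 2 and 3. The controls differed too, at -0.029, -0.08 and 0.13, and control 3 was the highest control for 17 of 21 genes (81.0%, against 35.6% of all genes). The deviation of oncostatin M 1 was largest for CDK1, which stood at -0.91 from the mean of the other treated arrays, TTK (-0.78), KIF11 (-0.66) and CENPE (-0.60). AURKB stood at 0.036 from that mean and BIRC5 at -0.06.

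For the S phase genes the median against the control mean was 0.0036 on oncostatin M 1, 0.09 on oncostatin M 2 and 0.044 on oncostatin M 3. Control 3 was the lowest control for 7 of the 11 genes (63.6%, against 34.9% of all genes). The medians of the G1 regulators were -0.15, 0.05 and -0.012 on the 3 treated arrays. Genes within a list share the same 6 arrays and cannot serve as replicates, so no test was made of these patterns. The label, dose and protocol of oncostatin M 1 were those of its group, and what set it apart was not tested.

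**Figure D3:**
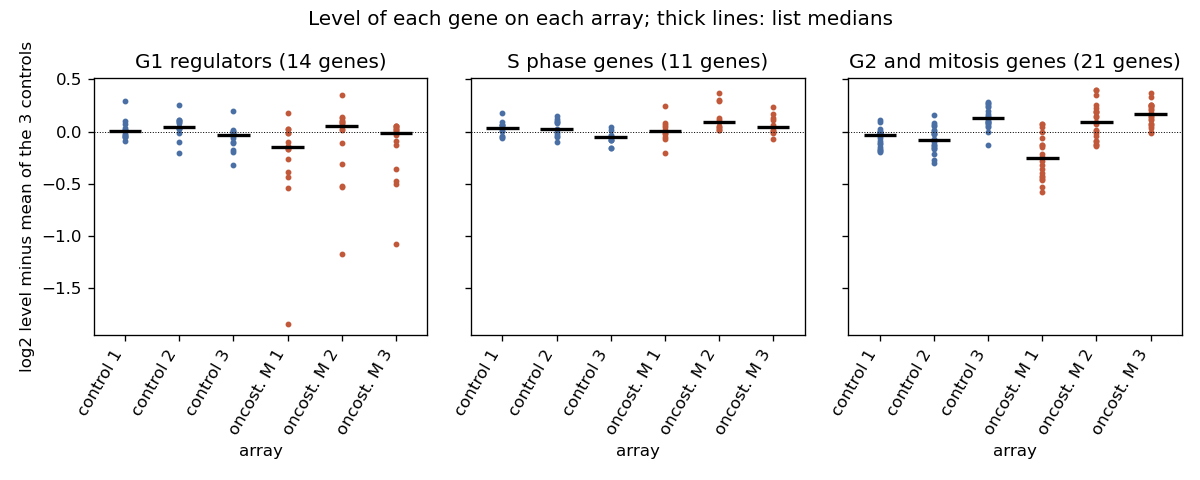
Log2 level of each gene minus its mean over the 3 controls (vertical axis), for each array (horizontal axis) and each list; points are genes and thick lines list medians. The 21 genes of G2 and mitosis lie low together on oncostatin M 1 (median -0.25) and high on control 3 and on oncostatin M 3 (medians 0.13 and 0.17), while the medians of the S phase genes lie between -0.05 and 0.09.

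Without oncostatin M 1 the median change of the genes of G2 and mitosis was 0.14, with 15 of 21 above 0, where the median of all genes was -0.014. In the other 5 fits with 1 array left out it lay between -0.07 (without oncostatin M 3) and 0.06 (without control 3). Without oncostatin M 1 the medians of the S phase genes and the G1 regulators were 0.06 and 0.019. No gene of G2 and mitosis passed the threshold without oncostatin M 1. In that fit 9 members were higher and 4 lower at an unadjusted p under 0.05 (limma). The share of all genes at that level was not counted, so the 9 cannot be set against it. At the adjusted threshold that fit called 400 of all 18417 genes higher and 332 lower, against 316 and 314 with no array left out. Oncostatin M 1 was the lowest of its group for 73.9% of the members, against 41.6% of all genes. Leaving it out therefore raises the changes of most members. TTK had the highest change of the list, 0.38 (adjusted p = 0.231), followed by CDK1 with 0.32 (adjusted p = 0.14). The fall of CCND1, CCND2 and CDK6 was of like size with that array and without it, at -0.44, -0.51 and -0.39.

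**Figure D4:**
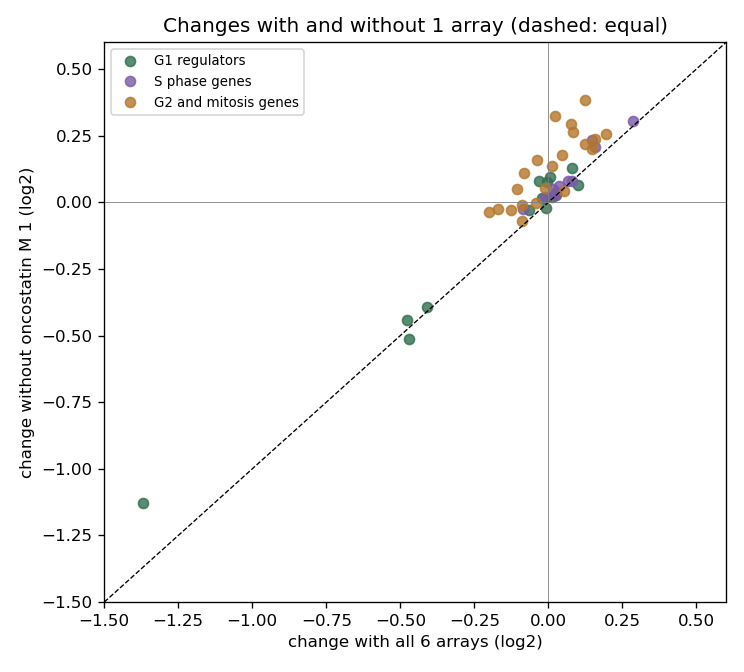
Change of each gene (log2, oncostatin M minus control) with all 6 arrays on the horizontal axis and without oncostatin M 1 on the vertical axis; the dashed line marks equal values. The genes of G2 and mitosis lie mostly above the line, moving from a median of 0.011 to 0.14, while CCND1, CCND2 and CDK6 stay near it and MYBL1 moves from -1.37 to -1.13.

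Promoters of the mitotic genes that dipped most on oncostatin M 1 are shown because those genes moved together across arrays. RefSeq windows on GRCh38.p14 were found for 34 of the 46 members, among them CDK6 but not CCND1, CCND2 or MYBL1. Shown are the 150 bases before the first listed start of the 5 genes with the largest dip among the mitotic genes with a window. They are read 5′ to 3′ on the strand of the gene. Capitals mark the CHR words TTTGAA and TTTAAA and the CCAAT box, each searched on both strands, so that ATTGG and TTCAAA are the same words on the other strand. No CHR word shares a letter with a CCAAT box in the sequences shown. The windows lie at chr10:60778181-60778330 (plus strand), chr10:92592980-92593129 (plus), chr4:103198344-103198493 (minus), chr15:59104996-59105145 (plus) and chr5:138178962-138179111 (plus).
CDK1: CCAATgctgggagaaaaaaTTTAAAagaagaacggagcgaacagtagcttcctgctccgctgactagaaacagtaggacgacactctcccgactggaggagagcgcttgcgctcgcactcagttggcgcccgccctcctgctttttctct
KIF11: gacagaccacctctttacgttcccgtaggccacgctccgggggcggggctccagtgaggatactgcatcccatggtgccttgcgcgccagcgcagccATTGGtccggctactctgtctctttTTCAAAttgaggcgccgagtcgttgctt
CENPE: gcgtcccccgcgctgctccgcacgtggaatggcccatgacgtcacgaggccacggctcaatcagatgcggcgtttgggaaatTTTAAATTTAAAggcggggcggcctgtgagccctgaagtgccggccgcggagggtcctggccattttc
CCNB2: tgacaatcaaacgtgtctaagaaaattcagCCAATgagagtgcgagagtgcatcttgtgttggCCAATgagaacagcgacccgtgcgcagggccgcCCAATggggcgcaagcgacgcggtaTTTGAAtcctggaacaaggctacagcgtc
KIF20A: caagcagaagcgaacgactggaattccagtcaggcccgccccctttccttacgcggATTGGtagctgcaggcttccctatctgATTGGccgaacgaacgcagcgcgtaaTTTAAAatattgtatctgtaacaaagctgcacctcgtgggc

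In CCNB2 the CHR word begins 29 bases before the start, and 3 CCAAT boxes begin at 120, 87 and 54 bases before it. KIF11 has 1 of each, at 28 and 53 bases before its start, and KIF20A has a CHR word at 41 and CCAAT boxes at 94 and 67. The CHR words of CDK1 and CENPE lie farther out, at 131 in CDK1 and at 68 and 62 in CENPE. CDK1 has 2 listed starts, and its distance is counted from the first. Over the 250 bases before any listed start, a CHR word was present in 13 of the 16 genes of G2 and mitosis that had a window (81.2%), in 1 of 9 S phase genes and in 1 of 9 G1 regulators, against 25.5% of 27305 genes with a window. A CCAAT box was present in 14, 6 and 2 of these genes, against 37.0% of all. A match is a description of the letters and not evidence of binding.

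Another word was searched for the S phase genes. The E2F words TTCCCGC and TTGGCGC were present in 7 of 9 S phase genes (77.8%), in 1 of 16 genes of G2 and mitosis and in 3 of 9 G1 regulators, against 9.40% of all genes with a window. RRM2, the S phase gene with the highest change, has CHR, CCAAT and E2F words in its windows, and its 150 bases before the first listed start (chr2:10122589-10122738, plus strand) are shown with the CHR word and the CCAAT boxes in capitals. CDK6 is the one called gene with a window, and the window at the first of its 2 listed starts (chr7:92836574-92836723, minus strand) is shown beside it.
RRM2: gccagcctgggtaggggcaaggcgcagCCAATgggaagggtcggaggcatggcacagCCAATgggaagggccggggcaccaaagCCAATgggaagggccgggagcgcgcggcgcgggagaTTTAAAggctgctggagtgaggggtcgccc
CDK6: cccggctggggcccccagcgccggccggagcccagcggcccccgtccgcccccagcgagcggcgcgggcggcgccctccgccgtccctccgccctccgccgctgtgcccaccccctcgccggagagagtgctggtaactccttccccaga
In RRM2 the CCAAT boxes begin 123, 93 and 66 bases before the start and the CHR word 30 bases before it, the same order as in CCNB2. No capital stands in the window of CDK6 that is shown. The STAT word TTCNNNGAA, searched because oncostatin M signals through STAT factors, was present in RB1, KIF20A and LMNB1, that is 3 of the 34 members, against 8.09% of all genes. It was in none of the listed windows of CDK6.

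Other genes of the cycle, were taken from lists that hold no member. Of 145 such genes, 1 was lower after oncostatin M and 0 were higher (limma, adjusted p under 0.05), with 17 at an unadjusted p under 0.05 (11.7%, beside 11.6% of all genes). The one called was E2F7, an E2F factor that represses transcription. It read 9.26, 9.30 and 9.20 in the controls and 8.66, 8.88 and 8.75 after oncostatin M. The groups were separate, and the level fell 1.41-fold (change -0.49, SE 0.08, limma adjusted p = 0.0136). E2F7 missed the threshold when control 1 was left out (adjusted p = 0.0864), and so it did for control 2 (0.076) and for oncostatin M 3 (0.053), so that none of the 145 was called in those fits.

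Of 46 other replication genes none was called and 36 lay above 0 (median change 0.05), and of 63 other mitosis genes none was called and 27 lay above 0 (median -0.015). Of all 18417 genes, 9252 lay above 0. An unadjusted p under 0.05 (limma) was reached by 19.6% of these replication genes and 1.59% of these mitosis genes, against 11.6% of all. Treated arrays lay above all controls for 12 and 2 genes of the 2 lists, against 7.43% of all. They lay below all controls for 2 and 0, against 10.6%. No test was made of these counts. The 63 mitosis genes repeated the pattern of arrays seen in the members. Oncostatin M 1 was the lowest of its group for 58 of them (92.1%), and their medians against the control mean were -0.24, 0.06 and 0.10 on the 3 treated arrays. Without oncostatin M 1, 56 of the 63 lay above 0, with a median of 0.08, where 8261 of all 18417 genes lay above 0. Leaving out the array that is lowest of its group raises a change. The count of 56 thus follows in part from the array chosen, and whether these genes rose as a set was not tested. The members and the 63 genes come from the same arrays, so the 63 genes are no independent repeat of the pattern.

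Inhibitors of the cyclin-dependent kinases did not pass the test either, with 0 of 7 called, 1 of 7 at an unadjusted p under 0.05 and a median change of -0.09. CDKN2B, which encodes an inhibitor of CDK4 and CDK6, came nearest, and it was singled out after its values were seen. It read 7.54, 7.66 and 7.57 in the controls and 7.36, 7.12 and 7.20 after oncostatin M. The groups did not overlap (change -0.36, SE 0.08, limma adjusted p = 0.0682), and of the 6 fits with 1 array left out it passed in 1, without oncostatin M 1 (change -0.42, adjusted p = 0.0159), with an adjusted p of up to 0.252 in the other 5. CDKN2B also passed after equal array medians, after quantile normalization, with either filter on dim genes and with array weights (limma adjusted p = 0.00506). With the replicate number as a block it did not (limma adjusted p = 0.174). Of 14 other E2F, pocket protein and MuvB genes only E2F7 passed, and of 15 checkpoint kinases, phosphatases and their partners none did, with 3 in each list at an unadjusted p under 0.05, a level that 11.6% of all genes reached.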

How the data were processed

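The authors deposited 1 log2 value for each probe set and array, and per the submitters' processing notes these were obtained by RMA with the program Affymetrix Expression Console 1.1, at settings not stated. RMA makes the distributions of the arrays alike and shrinks differences of dim probes, so a change here is relative to the rest of the array. Groups and replicate numbers come from the labels. No build is stated for the array, and the promoter coordinates are those of RefSeq. Of 33297 probe sets, 19460 have exactly 1 symbol in the platform's gene table, 1754 several and 12083 none. Each of 18417 genes was represented by its probe set of highest mean level.

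With limma 3.58.1 (R 4.3.3) a model of the 2 groups was fitted to all genes, with moderated two-sided tests, Benjamini-Hochberg adjustment over all genes and a threshold of 0.05, and it was tested on simulated data. The 95% intervals come from that model and are not adjusted for the number of genes. Silent genes were 409 genes of olfactory receptors and keratin-associated proteins. The members, lists and tests were chosen with earlier results of these data known. Any of the 46 members could be named, and of each further list up to 4 genes past the threshold. CDKN2B was added after its values were seen. Alternatives changed the normalization between arrays, the probe set, the filter on dim genes, the prior, the weights of arrays, the threshold, and the use of replicate numbers as a block, or left out each array. Figures were drawn with matplotlib 3.10.9.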

Additional observations from a re-analysis of the deposited data

How the results depend on the processing

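CCND1, CCND2, CDK6 and MYBL1 stayed called under 7 alternatives of normalization, probe set, filter, variance prior and array weights. Each of these genes has only 1 probe set, so the mean of all probe sets could not move its values. The filters on dim genes also left its change as it was. Of 48 genes followed through the alternatives, 29 changed sign in at least 1, none of them while called. At an adjusted p under 0.01 the count of members lower was 1. Leaving out 1 array gave 0 to 4 members lower, and at an unadjusted p under 0.05 the count was 4 in each of those fits. Of all genes, the same fits called between 105 and 332 lower, against 314 with no array left out. The count of members higher was 1 (RRM2) with genes not above the silent genes left out or at an adjusted p under 0.10, 0 with genes of a mean level under 6 left out, and 2 with array weights (RRM2 and BUB1B). Array weights raised the calls over all 18417 genes too, to 667 higher and 610 lower, against 316 and 314 without weights. Among the further cell cycle genes, 2 (E2F7 and CDKN2B) passed after equal array medians, after quantile normalization, with either filter on dim genes and at an adjusted p under 0.10. With array weights 9 of the further genes passed, 7 of them higher. At an adjusted p under 0.01 the count was 0 (limma, 17 at an unadjusted p under 0.05), and with 1 array left out it ran from 0 to 2. The median change of the S phase genes ran from -0.0010 to 0.0863 with 1 array left out, the highest without control 2, and that of the genes of G2 and mitosis from -0.0738 to 0.137. With the replicate number as a block, 2 members were lower (CCND1 and MYBL1), CCND2 and CDK6 missing the threshold with adjusted p of 0.0537 and 0.0594, and E2F7 passed. Same-numbered arrays deviated together with correlations of 0.0635, -0.456 and 0.511 over genes, so the numbers were not taken to pair the arrays. The causes of these shifts were not tested. The smallest change called among the members was -0.41 (CDK6), and a signal near that of silent genes, as for E2F2, limits what can be said of size.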
